A study of Homo sapiens with 6 samples.

Results

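The PAR bZIP factors DBP, TEF and HLF and the opposing factor NFIL3 were taken from the gene table by their symbols, which gave 4 of the 22354 loci listed. RNA-seq had been run on 6 libraries of Htoris-3.1 (also written HTori-3.1), a human thyroid cell line described as normal, to compare cells after BMAL1 knockout with control cells. The 3 libraries labelled control came from wild type cells. The 3 labelled BMAL1 knockout came from cells given Cas9 with an sgRNA against BMAL1 by lentivirus and kept under puromycin, after which single clones were picked. The growth protocol given for every sample also describes an siRNA against BMAL1, but the sample titles name only the sgRNA. Cells of both groups had been exposed to etoposide, a topoisomerase II poison that breaks DNA, at 2 μM, for 12 h according to the treatment field and for 24 h according to the treatment protocol. No library of cells without etoposide was analysed here. The labels do not say how many clones the libraries came from or whether the replicates were separate cultures, so the p-values measure only the spread between these 6 libraries, which may be technical, and a property of a clone cannot be told apart from the genotype. Total counts were 26893063, 27029060 and 28513703 in the control-labelled libraries 1 to 3, and 43148059, 29860233 and 43563391 in the knockout-labelled libraries 1 to 3.

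In the circadian clock, BMAL1 and CLOCK bind E-boxes and drive the genes of their own repressors, the PER and CRY proteins, and of several output factors. Among the latter are DBP, TEF and HLF, whose proline and acidic amino acid-rich (PAR) basic leucine zippers bind D-boxes and activate transcription, while NFIL3 (also called E4BP4) binds the same D-boxes and represses. NFIL3 itself is regulated through ROR elements, which the REV-ERB receptors NR1D1 and NR1D2 repress and the ROR receptors activate, so that activators and repressor are known to peak at opposite times of day in liver and other tissues. The methods for these cells give neither a time of day of harvest nor a step that synchronized their clocks. A difference in level therefore cannot be told apart from one in the timing of a rhythm.

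The promoters are shown for the 2 members whose windows held one of the clock motifs. RefSeq (GRCh38.p14) gave 7 windows for the 4 members, each from 250 bases before to 50 bases after an annotated start, and these were searched on both strands for CACGTG (an E-box), TTANGTAA (a D-box, N being any base) and TAGGTCA (a ROR element half-site). CACGTG was in both TEF windows, starting 195 and 193 bases before the annotated starts, and in none of the DBP, HLF and NFIL3 windows. TAGGTCA was in 1 of the NFIL3 windows, on the opposite strand (TGACCTA), starting 9 bases before the start, and no window of the 4 genes held TTANGTAA. Of all 35116 promoter windows of this length, 7.26% held CACGTG, 2.18% TTANGTAA and 1.85% TAGGTCA or their reverse complements. A match is a string of letters and not evidence of binding, and the lack of one says nothing of sites outside the window. The bases upstream of the annotated exons are given 5′ to 3′ on the strand of the gene, with the matched motif in capitals. The printed stretches are at chr22:41367205-41367332 and chr22:41381692-41381941 on the forward strand for TEF and at chr9:91423833-91424082 on the reverse strand for NFIL3. The first of these holds 128 of the 250 upstream bases of its window, since the annotated exons of TEF begin at 41367333, before the RefSeq start at 41367455 from which the 195 bases are counted.
TEF, upstream start: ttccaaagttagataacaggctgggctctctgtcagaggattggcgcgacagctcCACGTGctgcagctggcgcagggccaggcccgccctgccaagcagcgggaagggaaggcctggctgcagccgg
TEF, downstream start: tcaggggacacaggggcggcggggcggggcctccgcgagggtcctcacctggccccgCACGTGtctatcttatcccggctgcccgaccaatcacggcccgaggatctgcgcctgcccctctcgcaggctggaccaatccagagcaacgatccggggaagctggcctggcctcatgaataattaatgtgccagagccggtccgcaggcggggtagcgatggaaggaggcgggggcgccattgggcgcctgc
NFIL3: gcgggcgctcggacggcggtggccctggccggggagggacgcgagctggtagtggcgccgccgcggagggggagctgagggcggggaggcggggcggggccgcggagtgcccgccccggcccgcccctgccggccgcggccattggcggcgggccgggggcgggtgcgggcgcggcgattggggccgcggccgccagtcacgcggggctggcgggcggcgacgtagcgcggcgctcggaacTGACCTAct

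The targeted gene was examined first as a check of the labels. BMAL1 had 304, 326 and 409 counts in the control-labelled libraries and 764, 603 and 860 in the knockout-labelled libraries. In TMM-normalized CPM, which are counts scaled to a common library total, this was 11.3, 12.2 and 14.6 against 17.9, 19.8 and 19.4. Every knockout-labelled library therefore held more BMAL1 transcript than every control-labelled library, which goes against the label as far as transcript level is concerned. The log2 fold change was 0.58 (95% confidence interval 0.33 to 0.83; adjusted p = 0.0204, from the quasi-likelihood test of edgeR and adjusted by the Benjamini-Hochberg procedure over the 14860 loci that passed its low-count filter). The edgeR adjusted p was 0.0896 without control replicate 1, 0.113 without control replicate 2, 0.0749 without knockout replicate 2 and 0.0598 without knockout replicate 3, within a range of 0.00163 to 0.113 over all alternatives. The methods describe a western blot of BMAL1 protein in the knockout line, which is not analysed here. Counts per gene show neither the edited site nor the protein, so the groups are called by their labels, and each direction given here is that of the libraries labelled knockout.

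Of the 4 factors, TEF was lower and none was higher in the knockout-labelled libraries at an edgeR adjusted p under 0.05. Over all 14860 loci tested the shares were 1.43% lower (212 loci) and 1.08% higher (161 loci). Before adjustment 1 factor, NFIL3, was higher at an edgeR p under 0.05, as were 9.08% of all loci tested (1350), with 7.78% lower (1156), and DESeq2 and limma-voom each called 0 higher after adjustment. Without TMM normalization, on library size only, 155 loci were lower and 185 higher. Knockout replicate 1 stood apart from the other libraries of its group. Its counts differed from those of knockout replicates 2 and 3 by 31.1 and 45.0 times the variance of counting alone, against 7.43 times between replicates 2 and 3 and 5.41 to 14.5 times between control-labelled libraries. Without it 293 loci were higher and 340 lower, TEF had a log2 fold change of -0.51 (edgeR adjusted p = 0.0400), NFIL3 0.31 (edgeR adjusted p = 0.122), HLF 0.44 (edgeR adjusted p = 0.629) and DBP 0.07 (edgeR adjusted p = 0.931), so that each of the 4 kept its direction and its side of the threshold. The plot of CPM by library shows that the groups were apart for TEF and NFIL3, in opposite directions, and overlapped for DBP and HLF. Groups that did not overlap were found for 11.5% of all loci with the knockout-labelled libraries lower and for 11.8% with them higher, so that neither separation is rare in these data. With 3 libraries against 3, a two-sided exact permutation test cannot give a p below 0.1.

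**Figure D1:**
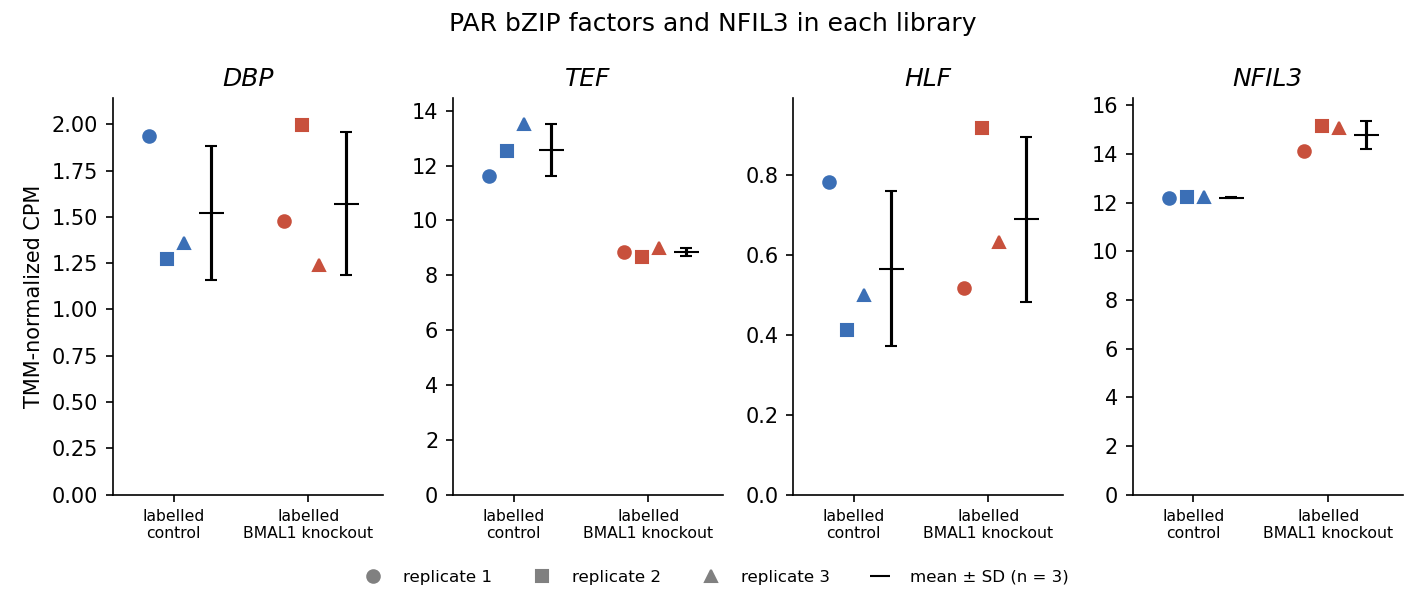
Expression of DBP, TEF, HLF and NFIL3 in TMM-normalized CPM (vertical axes from 0, each gene on its own scale) in the 3 libraries labelled control (blue) and the 3 labelled BMAL1 knockout (red), with symbols for the replicates and black bars for the mean ± SD (n = 3). TEF lay between 11.6 and 13.5 CPM in the control-labelled libraries and between 8.68 and 9.0 CPM in the others, NFIL3 was higher in all 3 knockout-labelled libraries, and the groups of DBP and HLF overlapped.

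TEF (thyrotroph embryonic factor, ENSG00000167074.15) is the PAR bZIP activator first described at the promoter of the pituitary gene for thyrotropin β. It is annotated at chr22:41367333-41399326 (hg38, forward strand), and a small nuclear RNA pseudogene, RNU6-495P, lies on the other strand within an intron and shares no exon base with it. TEF had 312, 335 and 379 counts in the control-labelled libraries and 378, 265 and 399 in the knockout-labelled libraries, which were sequenced more deeply, and 11.6, 12.5 and 13.5 CPM against 8.85, 8.68 and 9.0 CPM. All 3 knockout-labelled libraries were below the lowest control-labelled library and close to one another. Their coefficient of variation, 1.83%, was below the 5.37% that counting error alone gives at this count, so this closeness is not a measure of precision. The means were 12.6 ± 0.953 CPM (SD, n = 3) and 8.85 ± 0.162 CPM (SD, n = 3; two-sided exact permutation test, p = 0.1). The log2 fold change was -0.51 (SE 0.11, 95% confidence interval -0.75 to -0.26), or 0.704 of the control level, with an edgeR adjusted p of 0.0368. The direction held under all 15 alternatives, with log2 fold changes from -0.56 to -0.45, and the adjusted p was from 0.0129 to 0.143. It was under 0.05 in 7 of the 9 alternatives that used all 6 libraries, among them DESeq2 (0.0129) and counts thinned to equal depth (0.0459), and the 2 others were library size only, at 0.0503, and the replicate number as a block. Of the 6 fits that each left out a library, 1 kept the edgeR adjusted p under 0.05, that without knockout replicate 1 (0.0400). It was 0.0688, 0.143 and 0.101 without control replicates 1, 2 and 3, and 0.135 and 0.0845 without knockout replicates 2 and 3. The fall of TEF was thus similar in size whichever library was left out. Its edgeR adjusted p was over 0.05 in 5 of these 6 fits. Those 5 fits, each with a library fewer, also called fewer loci lower in all, from 67 to 147 against 212. The smaller number of libraries and a dependence on single libraries therefore cannot be told apart.

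DBP (D-box binding protein, ENSG00000105516.11), which was first found at the albumin promoter and is among the most strongly rhythmic genes known in several tissues, is annotated at chr19:48630030-48637379 (hg38, reverse strand). Its 3′ end overlaps SPHK2, a sphingosine kinase gene at chr19:48619291-48630717 on the other strand, by 688 bases, all of them in exons of DBP. The sources do not state whether the counting used strand, so reads in that stretch cannot be assigned with certainty and the counts of both genes are uncertain to that extent. DBP had 52, 34 and 38 counts in the control-labelled libraries and 63, 61 and 55 in the knockout-labelled libraries, or 1.94, 1.27 and 1.36 CPM against 1.48, 2.00 and 1.24 CPM. The highest library was knockout replicate 2 and the lowest knockout replicate 3, so the range of the knockout-labelled libraries enclosed that of the control-labelled libraries. The means were 1.52 ± 0.363 and 1.57 ± 0.387 CPM (SD, n = 3 each; two-sided exact permutation test, p = 0.8). On the log2 scale the fold change was 0.03 (SE 0.26, edgeR adjusted p = 0.967), with a 95% confidence interval of -0.54 to 0.61. A change of DBP within these bounds is not excluded. The sign turned under 4 alternatives, to -0.017 after thinning to equal depth, -0.08 without control replicate 2, -0.04 without control replicate 3 and -0.16 without knockout replicate 2. SPHK2 had 270, 373 and 315 counts against 364, 309 and 483, and a log2 fold change of -0.26 (edgeR adjusted p = 0.404).

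HLF (hepatic leukemia factor, ENSG00000108924.14), known also as a fusion partner of TCF3 in acute leukemia, is annotated at chr17:55264960-55325187 (hg38, forward strand). The long noncoding RNA gene ENSG00000263096 lies within it on the other strand and shares no exon base with it. HLF had the fewest counts of the 4 factors, with 21, 11 and 14 in the control-labelled libraries and 22, 28 and 28 in the knockout-labelled libraries, or 0.783, 0.411 and 0.500 CPM against 0.515, 0.917 and 0.632 CPM. Knockout replicate 2 and control replicate 1 were the 2 highest libraries, as for DBP, and the groups overlapped. A count of 11 has an exact 95% Poisson interval of 5.49 to 19.7 and a count of 28 one of 18.6 to 40.5, which cover counting error only, so that even the lowest and the highest count had overlapping intervals. The means were 0.565 ± 0.194 and 0.688 ± 0.207 CPM (SD, n = 3 each; two-sided exact permutation test, p = 0.5). The log2 fold change was 0.26 (SE 0.37, 95% confidence interval -0.54 to 1.07, edgeR adjusted p = 0.778), and over the alternatives it lay between 0.02 and 0.57 with no adjusted p under 0.05. HLF stood above only 6.05% of the loci tested by mean CPM and DBP above 14.0%, against 34.4% for TEF and 38.2% for NFIL3.

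NFIL3 (nuclear factor, interleukin 3 regulated, ENSG00000165030.4), the repressor of D-box genes and a factor needed for natural killer cell development, is annotated at chr9:91409045-91423832 (hg38, reverse strand) and overlaps no other annotated gene. It had 327, 327 and 342 counts in the control-labelled libraries and 603, 463 and 668 in the knockout-labelled libraries, or 12.2, 12.2 and 12.2 CPM against 14.1, 15.2 and 15.1 CPM. All 3 knockout-labelled libraries were above all 3 control-labelled libraries. The means were 12.2 ± 0.0200 and 14.8 ± 0.576 CPM (SD, n = 3 each; two-sided exact permutation test, p = 0.1). The coefficient of variation in the control-labelled libraries, 0.164%, was far below the 5.49% that counting error alone gives at this count, so here too the closeness of the values does not measure their precision. This gave a log2 fold change of 0.28 (SE 0.10, 95% confidence interval 0.06 to 0.49), or 1.21 times the control level. The interval excluded 0, but after adjustment over all loci the edgeR p was 0.172 (0.0154 before adjustment), and the difference therefore did not pass the test. Over the 15 alternatives the log2 fold change was from 0.26 to 0.31, with adjusted p from 0.0718 to 0.418. The lowest was obtained after removal of each library's trend with GC content, an alternative chosen after seeing the data.

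To compare the 4 factors with one another, CPM was divided by the length of the annotated canonical transcript, which is 2.055 kb for NFIL3, 4.381 kb for TEF, 2.17 kb for DBP and 5.721 kb for HLF. The transcripts the cells use were not determined. NFIL3 had the highest level per kb, 5.94 ± 0.00974 CPM per kb (SD, n = 3) in the control-labelled libraries and 7.20 ± 0.281 (SD, n = 3) in the knockout-labelled libraries. TEF followed with 2.87 ± 0.217 and 2.02 ± 0.0370 CPM per kb, DBP with 0.701 ± 0.167 and 0.724 ± 0.179, and HLF with 0.0987 ± 0.0339 and 0.120 ± 0.0361 (SD, n = 3 each). The order was the same in each of the 6 libraries, and no pair of neighbours in it overlapped in either group. TEF thus had the highest level per kb of the 3 activators and made up between 64.7% and 81.3% of their summed level per kb in a library. The size of that share depends on the length used. With the length of all annotated exons, an alternative chosen after seeing the data that gives DBP 6.485 kb, DBP had means of 0.235 and 0.242 CPM per kb, and the mean share of TEF was 89.3% in the control-labelled and 84.6% in the knockout-labelled libraries, in place of 78.2% and 70.7%.

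The levels per kb also gave the balance between the repressor and its opponents in each library, as a ratio that no test was applied to. NFIL3 stood to TEF at 2.23, 2.08 and 1.92 in the control-labelled libraries and at 3.40, 3.72 and 3.57 in the knockout-labelled libraries. Relative to DBP, TEF and HLF together it stood at 1.61, 1.69 and 1.56 against 2.46, 2.41 and 2.68. Both ratios were higher in every knockout-labelled library than in any control-labelled library, by 1.71 times and 1.55 times in the means (1.71 and 1.62 times with the length of all annotated exons). The summed level of the activators was 3.68, 3.52 and 3.80 CPM per kb against 2.79, 3.06 and 2.74 CPM per kb. The separation of both ratios follows from these values and is no further result. NFIL3 was higher, and TEF and the summed level lower, in every knockout-labelled library than in any control-labelled library. Of the 2 differences that enter the ratio to TEF, that of TEF passed the test and that of NFIL3 did not.

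**Figure D2:**
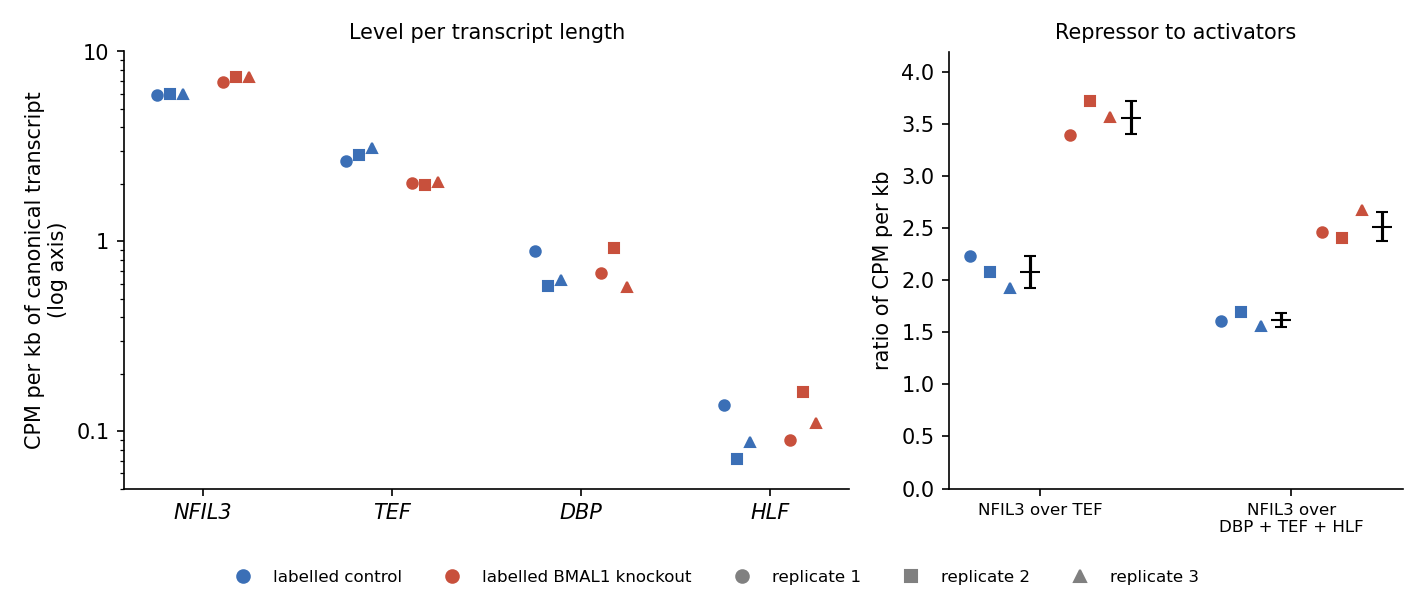
Left, CPM per kb of canonical transcript (log axis) of NFIL3, TEF, DBP and HLF in each library labelled control (blue) or BMAL1 knockout (red), with symbols for the replicates. Right, ratio of NFIL3 to TEF and to DBP, TEF and HLF together (axis from 0) in the same libraries with the mean ± SD (n = 3); the ratio to TEF was 2.08 ± 0.155 in the control-labelled and 3.56 ± 0.162 in the knockout-labelled libraries, and the ratio to the 3 activators 1.62 ± 0.0651 and 2.52 ± 0.143.

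The factors differed in how they varied over the 6 libraries. DBP and HLF rose and fell together in log2 CPM (Pearson r = 0.836, n = 6 libraries), both being highest in knockout replicate 2 and control replicate 1, although neither separated the groups. TEF and NFIL3 ran opposite to each other (r = -0.942, n = 6), as their group means do. TEF had r = -0.248 with DBP and -0.499 with HLF, and NFIL3 had 0.109 with DBP and 0.473 with HLF. These are descriptions of 6 libraries that fall into 2 groups, and for DBP and HLF they rest on counts of at most 63 a library.

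The other genes known to be driven by CLOCK and BMAL1 through E-boxes gave the setting for DBP, TEF and HLF. Of 14 such genes 13 were tested. At an edgeR adjusted p under 0.05, 3 were lower (NR1D1, NR1D2 and PER3) and 0 higher, beside 1.43% and 1.08% of all loci. Before adjustment, 4 of the 13 had an edgeR p under 0.05 on the lower side and 1 on the higher side, beside 7.78% and 9.08% of all loci tested, and DESeq2 and limma-voom called 3 lower and 0 higher. In the list 7 genes were above 0 and 6 below, and the median log2 fold change, 0.09, compares with 0.01 over all loci tested. NR1D1, which encodes the repressor REV-ERBα, had 7.75, 7.11 and 6.86 CPM in the control-labelled libraries and 3.07, 3.24 and 2.84 CPM in the knockout-labelled libraries. Its log2 fold change was -1.25 (95% confidence interval -1.56 to -0.94, edgeR adjusted p = 0.00146). NR1D2, which encodes REV-ERBβ, had 64.9, 61.8 and 77.8 CPM against 42.0, 37.5 and 39.4 CPM, a log2 fold change of -0.78 (SE 0.10, edgeR adjusted p = 0.00233). Both genes of the REV-ERB repressors were thus lower in every knockout-labelled library, and both kept an adjusted p under 0.05 under all 15 alternatives.

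PER3, a PER family repressor gene, had 27.5, 26.1 and 26.2 CPM against 18.2, 18.1 and 20.5 CPM. Its log2 fold change of -0.49 (95% confidence interval -0.69 to -0.29, edgeR adjusted p = 0.0168) was close to that of TEF. The edgeR adjusted p of PER3 was 0.0763, 0.0730 and 0.0596 without control replicates 1, 2 and 3 and 0.0867 without knockout replicate 2, in a range of 0.000704 to 0.0867 over all alternatives. The largest differences of the list that did not pass the test went both ways. They were those of BHLHE41, which encodes the E-box repressor DEC2 (log2 fold change -0.35, edgeR adjusted p = 0.216), PER2 (0.33, edgeR adjusted p = 0.224) and PER1 (-0.22, edgeR adjusted p = 0.532). PER1 had 8.09, 7.25 and 7.36 CPM against 4.97, 7.27 and 7.29 CPM. Of its knockout-labelled values, only that of replicate 1 lay below the control-labelled range. The E-box genes thus held both the lower values that TEF shared and values near or above 0, as DBP and HLF had. CACGTG was in a promoter window of 5 of the 12 genes of this list that had one (NR1D2, PER1, BHLHE40, BHLHE41 and CIART), beside 8.77% of all 27305 genes with a window and 12.6% of the 10903 tested genes with one.

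**Figure D3:**
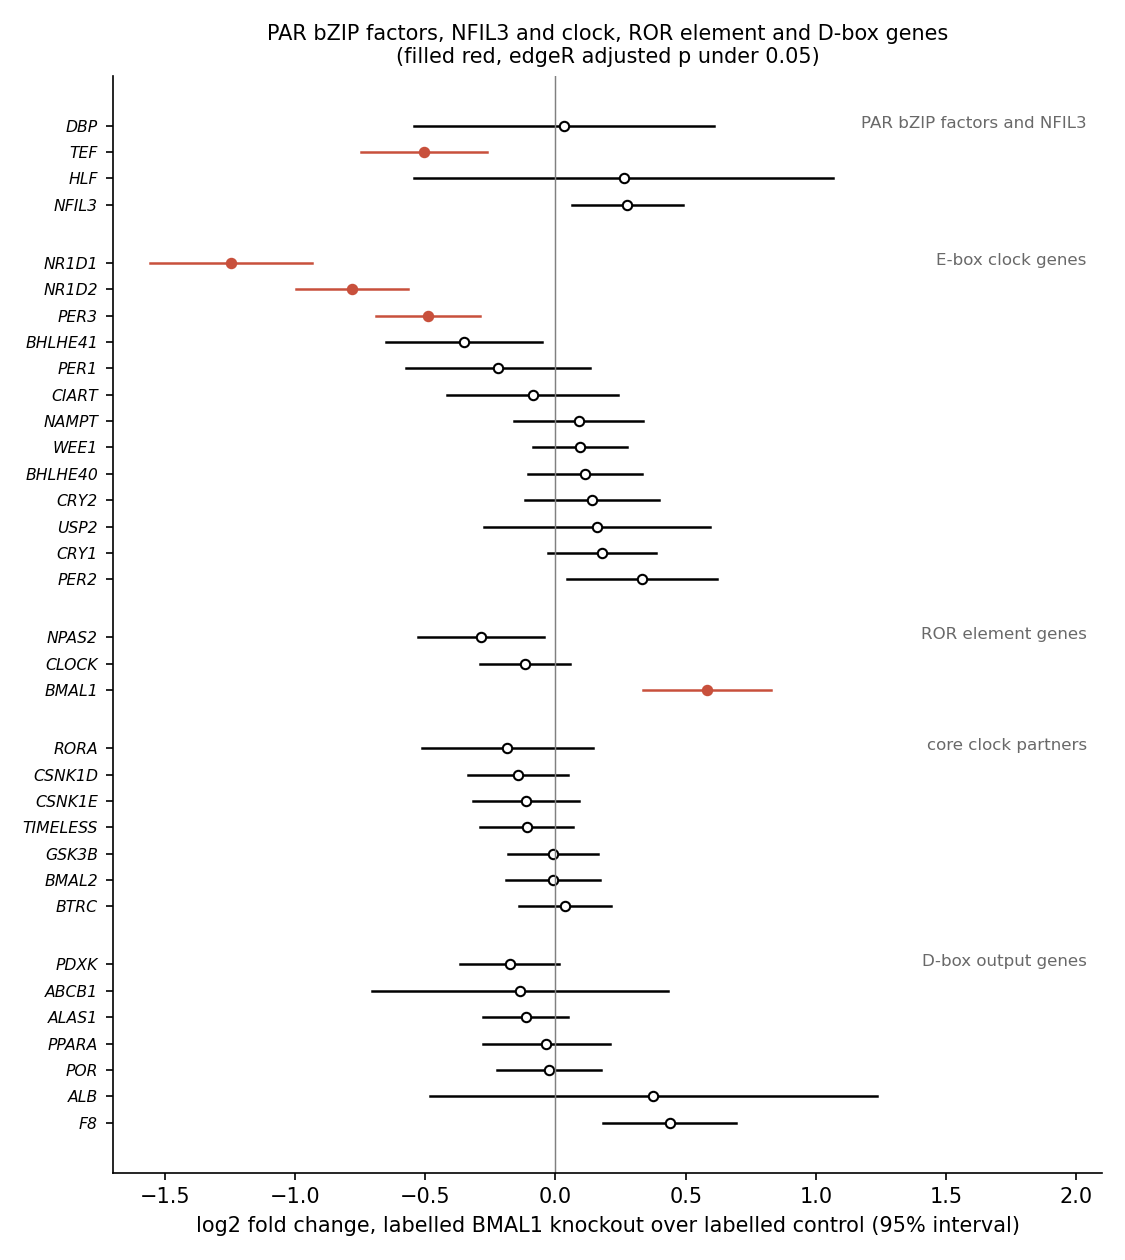
Log2 fold change (horizontal axis, libraries labelled BMAL1 knockout over libraries labelled control) with its 95% confidence interval for the 4 factors and for the tested genes of the E-box, ROR element, core clock and D-box output lists that are reported here, each gene drawn once; RORA and the PER, CRY1 and NR1D genes also belong to the D-box clock list. Filled red points have an edgeR adjusted p under 0.05, which were TEF, NR1D1, NR1D2 and PER3 below 0 and BMAL1 above it.

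NFIL3 belongs with the genes that REV-ERB represses and ROR activates through ROR elements. Of the 5 others listed, which share members with the remaining lists, 4 were tested. At an edgeR adjusted p under 0.05, 1 was higher (BMAL1) and 0 lower, beside 1.08% and 1.43% of all loci tested. Before adjustment 1 was higher (BMAL1) and 1 lower (NPAS2) at an edgeR p under 0.05, beside 9.08% and 7.78% of all loci. DESeq2 and limma-voom each called 1 higher and 0 lower. The median log2 fold change was 0.03. NPAS2, a CLOCK paralogue, had a log2 fold change of -0.28 (edgeR adjusted p = 0.214), CRY1 0.18 (edgeR adjusted p = 0.370) and CLOCK -0.12 (edgeR adjusted p = 0.488). Next to BMAL1, with a log2 fold change of 0.58, NFIL3, at 0.28, and CRY1, at 0.18, had the other positive values among these genes. TAGGTCA or its reverse complement was in a promoter window of 1 of the 4 listed genes that had one, BMAL1, beside 2.29% of all genes with a window and 1.74% of the tested genes.

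Of 14 core clock partners, which comprise BMAL1 and CLOCK, their paralogues, the ROR genes, TIMELESS and the kinases and ubiquitin ligase parts that act on clock proteins, 13 were in the table and 11 were tested. BMAL1 alone was higher and 0 were lower at an edgeR adjusted p under 0.05, beside 1.08% and 1.43% of all loci tested. Before adjustment 1 of the 11 was higher (BMAL1) and 1 lower (again NPAS2) at an edgeR p under 0.05, beside 9.08% and 7.78% of all loci. DESeq2 and limma-voom each called 1 higher and 0 lower. The median log2 fold change was -0.11, with 9 of 11 below 0. Besides BMAL1, the genes with the larger differences included NPAS2, given above, and RORA, whose interval included 0 (log2 fold change -0.18, edgeR adjusted p = 0.582).

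D-box genes are those that DBP, TEF and HLF activate and NFIL3 represses. Of 8 clock genes with known D-boxes, 6 of them also in the E-box list, 7 were tested. The 3 that were lower at an edgeR adjusted p under 0.05 were again NR1D1, NR1D2 and PER3, and 0 were higher. The shares over all loci tested were 1.43% lower and 1.08% higher. With an edgeR p under 0.05 and no adjustment, 3 of the 7 were lower and 1 higher, beside 7.78% and 9.08% of all loci, and DESeq2 and limma-voom called 3 lower and 0 higher. The median log2 fold change of the list was -0.22, with 5 of 7 below 0, against 0.01 over all loci. Since 6 of the 8 genes are in both lists, the counts of the lists are not independent of each other. TTANGTAA was in a promoter window of 4 of the 8 genes (PER2, PER3, NR1D2 and RORB), beside 2.71% of all genes with a window and 1.76% of the tested genes. PER3 and NR1D2, with the motif, were lower, as was NR1D1 without it, while PER2, with the motif, had 9.28, 7.67 and 7.28 CPM against 9.51, 11.1 and 9.93 CPM.

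Genes outside the clock that are known as metabolic or tissue targets of the PAR bZIP factors or of NFIL3 were examined next. Of 17 listed, mostly liver genes, 10 had too few counts to be tested, among them CYP7A1, PCK1 and TSHB. Of the 7 tested 0 were lower and 0 higher at an edgeR adjusted p under 0.05, beside 1.43% and 1.08% of all loci. An edgeR p under 0.05 before adjustment was found for 1 higher gene and 0 lower genes of the 7, beside 9.08% and 7.78% of all loci, and DESeq2 and limma-voom called 0 in either direction. The median log2 fold change was -0.04, with 5 of 7 below 0. F8, the gene of coagulation factor VIII, had 13.3, 12.3 and 12.3 CPM against 19.1, 17.7 and 14.6 CPM, higher in all 3 knockout-labelled libraries, with a log2 fold change of 0.44 (95% confidence interval 0.18 to 0.69, edgeR adjusted p = 0.0741). ALAS1, which encodes the first enzyme of haem synthesis and was named after its values were seen, was the other gene whose groups did not overlap. It was lower in all 3 knockout-labelled libraries, at 83.3, 79.5 and 82.1 CPM against 71.5, 76.2 and 78.7 CPM, with a log2 fold change of -0.11 (edgeR adjusted p = 0.482). PDXK, pyridoxal kinase, had -0.18 (edgeR adjusted p = 0.336) and ABCB1, the P-glycoprotein gene, -0.14 (edgeR adjusted p = 0.843). Groups apart on the higher side, as for F8, were found for 11.8% of all loci tested. On the lower side, as for ALAS1, the share was 11.5%. The D-box targets outside the clock that were expressed in these cells thus gave no call in either direction, and their only difference with an interval clear of 0 was that of F8.

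The C/EBP, ATF and CREB factors form the wider bZIP group, some of which bind sites that resemble the D-box. Of 20 listed 17 were tested. At an edgeR adjusted p under 0.05, 1 was higher (ATF3) and 0 lower, beside 1.08% and 1.43% of all loci. Without adjustment, 3 of the 17 were higher and 0 lower at an edgeR p under 0.05, beside 9.08% and 7.78% of all loci, and DESeq2 called 1 higher and limma-voom 0, while both called 0 lower. The median log2 fold change was 0.00, with 9 above 0 and 8 below. ATF3, a stress-induced repressor gene, had 53.4, 51.2 and 52.5 CPM against 60.5, 74.2 and 74.1 CPM, a log2 fold change of 0.41 (95% confidence interval 0.21 to 0.61, edgeR adjusted p = 0.0394). That adjusted p was 0.111, 0.174 and 0.109 without control replicates 1, 2 and 3, and 0.165 and 0.111 without knockout replicates 2 and 3. It was 0.0677 with limma-voom and 0.0739 in edgeR with the replicate number as a block, in a range of 0.00205 to 0.174 over all alternatives. DDIT3, the gene of the stress factor CHOP, had a log2 fold change of 0.32 (edgeR adjusted p = 0.141) and CEBPG 0.28 (edgeR adjusted p = 0.166), each higher in all 3 knockout-labelled libraries. JDP2 had 0.13 (edgeR adjusted p = 0.632). Groups that did not overlap, with the knockout-labelled libraries higher as for DDIT3 and CEBPG, were found for 11.8% of all loci tested. The log2 fold change of NFIL3, 0.28, was of the same size as those of CEBPG and DDIT3.

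The genes whose log2 CPM ran closest to each factor over the 6 libraries were sought among genes with an annotated name and a mean of at least 5 CPM. For TEF they were PSD3 (Pearson r = 0.993), IL7R (0.993) and TBC1D5 (0.992), and 401 of 10675 genes had r over 0.9. TBC1D5 had a log2 fold change of -0.19 and did not pass the test (edgeR adjusted p = 0.213). PSD3 fell from a mean of 13.5 to 9.34 CPM and IL7R from 92.0 to 55.7 CPM (log2 fold changes -0.53 and -0.72, edgeR adjusted p = 0.0354 and 0.00250). For NFIL3 they were KSR1 (0.998), CDKN2B (0.997) and MED12L (0.996), and 275 genes had r over 0.9. MED12L had a log2 fold change of 0.47 and did not pass it (edgeR adjusted p = 0.102). KSR1 rose from a mean of 11.1 to 16.8 CPM and CDKN2B from 6.61 to 10.5 CPM (log2 fold changes 0.59 and 0.66, edgeR adjusted p = 0.0111 and 0.0163). For DBP they were ERLIN2 (0.956), CIITA (0.954) and RNF31 (0.954), with 10 of 10676 genes over 0.9, and for HLF RASGRP3 (0.992), CNNM4 (0.977) and PTPN21 (0.973), with 32 over 0.9. None of these 6 genes had an edgeR adjusted p under 0.05, the lowest being 0.484 for PTPN21. The 6 libraries fall into 2 groups, and genes that separate these groups share the pattern of TEF or of NFIL3.

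The genes next to the 4 factors on their chromosomes were examined for a regional difference. Among the 10 tested genes on each side, the median log2 fold change was -0.02 around TEF, -0.02 around DBP, -0.00 around HLF and -0.03 around NFIL3. An edgeR adjusted p under 0.05 was found for 1 neighbour each of DBP (GRIN2D, log2 fold change 0.65), TEF (CSDC2, 1.14) and HLF (NOG, -0.64), which were named after their values were seen. These are 3 of 80 neighbours, beside 373 of the 14860 loci tested. GRIN2D, CSDC2 and NOG had edgeR adjusted p of 0.0130, 0.0426 and 0.0340. CSDC2 was scarce, at means of 0.858 and 1.90 CPM in the control-labelled and knockout-labelled libraries. Around TEF 12 of 20 neighbours were below 0, as were 47.8% of all loci tested, and the lowest log2 fold change among them was -0.43.

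Markers of cell type were counted in the same libraries. Of 12 thyroid follicular genes 3 had a mean of at least 1 CPM (PAX8, FOXE1 and HHEX), PAX8 being the most abundant, and NKX2-1 and IYD had no count in any library. PAX8 had a mean of 133 CPM in the control-labelled and 110 CPM in the knockout-labelled libraries (edgeR adjusted p = 0.259) and FOXE1 48.0 and 40.0 CPM (edgeR adjusted p = 0.139). The other tested genes of the list were above 0 in log2 fold change, HHEX at 0.05, SLC26A4 at 0.15 and DUOX1 at 0.25, with edgeR adjusted p of 0.884, 0.896 and 0.796. TG and TSHR had at most 13 counts in a library, so that the line held transcripts of thyroid transcription factors and few or none of TG and TSHR. The summed level of the thyroid list was 183, 183 and 212 CPM against 142, 159 and 184 CPM, and the groups overlapped. Of 6 epithelial genes, with KRT8 the most abundant, the sum was 2989, 3043 and 2896 CPM against 2538, 2480 and 2562 CPM, and KRT18 was lower (log2 fold change -0.50, edgeR adjusted p = 0.00583). The list was not lower as a whole. KRT8 had a log2 fold change of -0.28 (edgeR adjusted p = 0.0507), while KRT7 (0.10), KRT19 (0.23) and the scarce EPCAM (1.57) were on the other side of 0, with edgeR adjusted p of 0.540, 0.426 and 0.394. CDH1 had at most 14 counts in a library and was not tested. Of 6 fibroblast genes, COL1A1 was the most abundant and DCN and LUM had no count, and the sum was 921, 926 and 789 CPM against 717, 934 and 988 CPM. COL1A2 and COL3A1 had at most 2 counts in a library. The sum was thus almost all COL1A1, with PDGFRB at means of 19.1 and 21.0 CPM in the control-labelled and knockout-labelled libraries. The 4 endothelial genes, led by VWF, summed to 2.05, 1.83 and 2.21 CPM against 1.33, 1.24 and 1.71 CPM. The list was scarce, with VWF (log2 fold change -0.26) and CDH5 (-0.56) at edgeR adjusted p of 0.694 and 0.561 and PECAM1 and KDR at no more than 8 counts in a library. The 5 immune genes, led by CD68 and with CD3E at 0 throughout, summed to 19.0, 19.6 and 17.4 CPM against 13.8, 11.4 and 12.0 CPM, and PTPRC was lower (log2 fold change -1.43, edgeR adjusted p = 0.00127), with CD68 at -0.27 (edgeR adjusted p = 0.296). The epithelial, endothelial and immune sums were lower in every knockout-labelled library than in any control-labelled library, as TEF was, the epithelial sum through KRT8 and KRT18 only, and their part in the value of TEF was not tested. In such bulk libraries, fewer cells with a transcript and less transcript per cell cannot be told apart.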

How the data were processed

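RNA-seq counts of 6 libraries were used, 3 labelled control and 3 labelled BMAL1 knockout, grouped by the sample titles. The authors filtered the reads for adapters and base quality and aligned what was left to hg38. The deposited values are raw counts for each gene, made from uniquely mapped reads and neither normalized nor pooled. The submitters' processing notes list fastp 0.20.1 and HISAT2 2.0.4. The annotation and strandedness are not given in the sources used here. Total counts were from 26893063 to 43563391 a library. Within groups, the variance between 2 replicates was 5.41 to 45.0 times that of counting alone, so spread between libraries limits abundant genes, and counting adds to it for HLF and DBP.

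CPM (TMM), log2 fold changes and two-sided p-values were computed with edgeR 4.0.16 under R 4.3.3 (robust quasi-likelihood fit, default filter with a minimum count of 10, no covariates), with Benjamini-Hochberg adjustment across the 14860 loci that the filter kept. SE and 95% intervals were derived from the F statistic and its degrees of freedom. All 4 factors passed the filter. Single values were also compared by exact permutation. Correlations used log2 CPM with a prior count of 2. For positions and lengths, 20018 of the 22354 loci matched a GENCODE v44 name.

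The alternatives tried were DESeq2 1.42.0, limma-voom (limma 3.58.1), size factors by median of ratios, library size without TMM, 2 other low-count filters (none, or 10 counts in each library), the replicate number as a block, thinning to the smallest total, omission of each library in turn and, chosen after seeing the data, removal of each library's GC trend and, for levels per kb, the length of all annotated exons. The fits were tested on simulated data; thinning was not. The factors, lists and markers were chosen with earlier results of these data known. Genes named were the 4 factors, BMAL1, list genes with an adjusted p under 0.05, up to 3 others per list by size of fold change (mean of at least 1 CPM), overlapping genes, the 3 genes most correlated with each factor (mean of at least 5 CPM), and cell type markers. Also named were list genes with a motif match and some untested list genes. ALAS1 and the neighbours GRIN2D, CSDC2 and NOG were named after their values were seen. Some genes of the lists are not reported here.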

Additional observations from a re-analysis of the deposited data

How the results depend on the processing

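TEF was lower, and NFIL3 and HLF higher without passing the test, under all 15 alternatives. The log2 fold change of TEF was -0.48 with its adjusted p over 0.05 on library size only, and from -0.56 to -0.45 when a library was left out; only the fit without BMAL1 knockout replicate 1 kept it under 0.05. The sign of DBP turned after thinning to equal depth (-0.017) and in 3 of the fits that left out a library (-0.16 to 0.24 over the 6). Loci called higher numbered 256 with DESeq2, 102 with limma-voom and 469 after GC correction, and from 46 (without control replicate 2) to 293 (without BMAL1 knockout replicate 1) with a library left out, against 161. Loci called lower numbered 379 with DESeq2 and 567 after GC correction, and from 67 to 340 with the same libraries left out, against 212. The cause was not tested. Replicate numbers did not pair the libraries: deviations from the group means correlated at -0.189, -0.0718 and -0.0944 for numbers 1, 2 and 3, and no control library correlated best with its own number. With the replicate block, TEF had a log2 fold change of -0.50, the edgeR adjusted p of TEF and of ATF3 was 0.0739, no call of BMAL1, NR1D1, NR1D2 or PER3 was lost, and 132 loci were called higher and 145 lower. HLF and DBP had at most 28 and 63 counts a library, so counting adds to their spread.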
